A study of Bos taurus with 18 samples.

Results

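The library labelled Holstein-Like immortalized 2 is 1 of 18 RNA-seq libraries in a study of cow fibroblasts kept in long culture, and its transcripts were set against those of 3 other libraries of the same line. The study followed a Holstein-Like line and a Simmental-Like line, called PBF-15 and PBF-13 when freshly isolated, through 3 stages named primary, senescent and immortalized; each stage of each line has 3 libraries. Immortalized 2 carries the cell line label HUN-BF-15, the Holstein-Like line after spontaneous immortalization, with no treatment or gene change named. The 3 other libraries are senescent 2 and senescent 3, both labelled Sn-BF-15, and immortalized 1, labelled HUN-BF-15 like the library of interest. All 4 are therefore labelled as fibroblasts of the Holstein-Like line, and immortalized 2 and immortalized 1 share their stage as well. The labels name biological replicates but not whether each was a culture of its own, and no age of the cows is given.

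These 4 libraries were chosen from their measured transcripts: kidney genes and a high mitochondrial share in immortalized 2, liver genes in the other 3. ALB, TERT and PPARGC1A were the marker genes of that choice. The difference between them is therefore given as a description, with no test, and the question is which nephron segments and tissues the genes of the library belong to. Levels are CPM, counts per 1e+06 counts of the library. Where the 3 liver-rich libraries are given together, their values stand in the order senescent 2, senescent 3 and immortalized 1.

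The kidney filters plasma in the glomerulus, where podocytes hold a slit diaphragm over the capillaries, and then recovers most of the filtrate along a tubule. The proximal tubule takes back glucose, amino acids, phosphate and filtered protein, the thick ascending limb reclaims salt without water, the distal convoluted and connecting tubules tune salt and calcium, and the collecting duct sets water, potassium and acid. Each segment carries its own transporters, so a bulk library can be read segment by segment, whereas in fibroblasts nearly all of these transporters are silent.

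Immortalized 2 held 10984796 counts, against 12909620, 13330387 and 11924048 in the 3 liver-rich libraries. For a gene with no read at these depths, an upper limit of 3 counts corresponds to 0.273 CPM in immortalized 2 and at most 0.252 CPM in the other 3. All intervals and floors here cover counting error only. The fibroblast label was checked against its defining markers: COL1A1, the main chain of fibrillar collagen, had 67.2 CPM in immortalized 2, against 16.6, 61.2 and 187 CPM in the 3 liver-rich libraries, and 13675 to 28537 CPM in the 9 Simmental-Like libraries. The label and the transcripts of immortalized 2 thus go against each other, and the library is called here by its label and its leading genes.

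10041 genes had 10 CPM or more in at least 1 of the 4 libraries, and these were compared. 1070 of them (10.7%) lay at least 4-fold above the highest of the 3 liver-rich libraries in immortalized 2, and 497 (4.95%) lay at least 4-fold below the lowest. By any margin, 6860 (68.3%) lay above all 3 and 1484 (14.8%) below all 3. The split turned round with TMM scaling, which gave 544 genes above and 727 below, and with DESeq2 size factors, which gave 563 above and 716 below. The median over all compared genes moved with the scaling: the log2 ratio of immortalized 2 to the median of the 3 libraries was 0.83 by column total, -0.07 by TMM and -0.03 by DESeq2 size factors. Against the single libraries, before any pseudocount, TMM moved the log2 ratio of every gene by -0.91 for senescent 2, -0.73 for senescent 3 and -0.93 for immortalized 1, and the added 0.5 CPM makes the shift smaller for genes at low levels. Where TMM scaling ends a 4-fold call of a gene named below, or changes a list's count by more than 1.5 times, this is said beside it. At the edge of the 4-fold threshold, ALDH4A1, a proline-breakdown enzyme, was just inside at 4.0047-fold and AIF1L, an actin-binding protein, just outside at 3.9954-fold. In 53 of the 1070 genes all 3 liver-rich libraries had 0 counts, and in 66 of the 497 genes immortalized 2 had 0 counts.

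Among all given gene names, the 20 that stood farthest above the 3 liver-rich libraries were CDH16, UMOD, CALB1, SLC12A1, SLC22A6, DPEP1, SLC12A3, MME, FAM151A, OAT3 (SLC22A8), TINAG, SLC34A1, LRP2, TSPAN1, SLC16A4, CUBN, AQP2, RHCG, KLK1 and SLC13A1. Most of these are textbook genes of the tubule, from the proximal end to the collecting duct. CDH16, the kidney-specific cadherin of tubule cells, had 3538 CPM in immortalized 2, against 0.0775, 0.075 and 0.252 CPM in the 3 liver-rich libraries. Its ratio to the highest of the 3 was 14064-fold, with a 95% counting interval of 4812 to 68199.7-fold. In the other 14 libraries of the series CDH16 reached at most 6.18 CPM. Of the 9204 genes at 10 CPM or more in immortalized 2, 357 (3.88%) lay at least 4-fold above every one of the 17 other libraries, and 66 of these belonged to 7 lists of nephron segment genes.

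**Figure D1:**
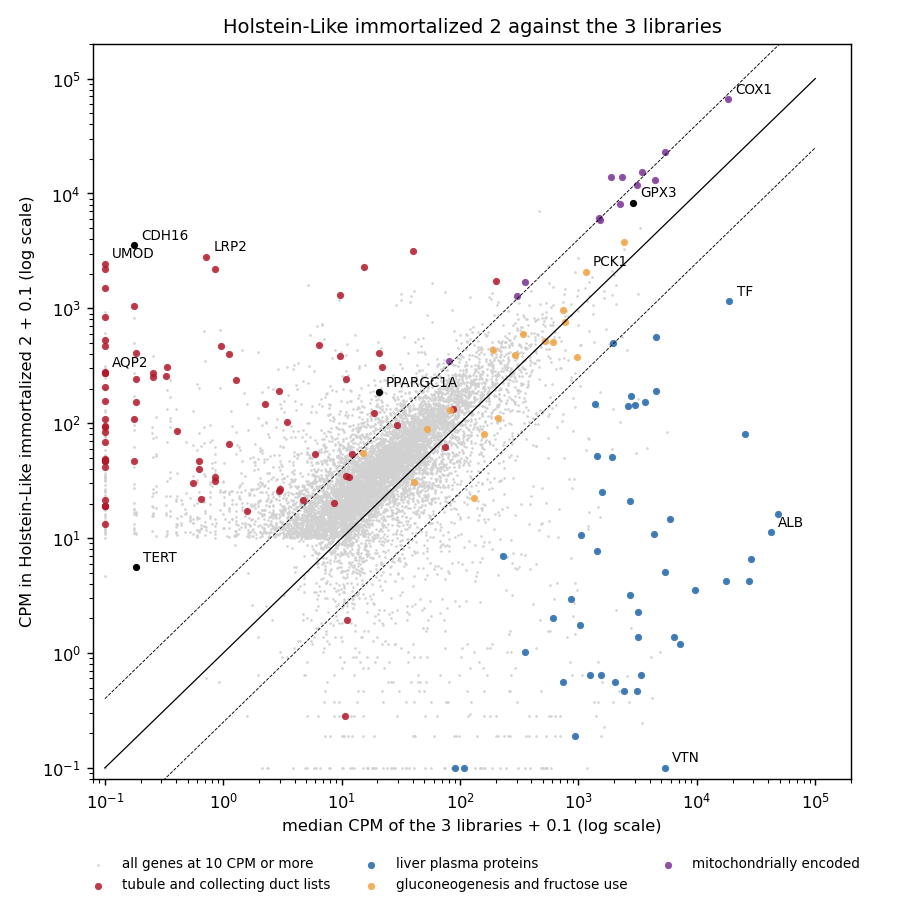
CPM of each gene in Holstein-Like immortalized 2 (vertical, log scale) against the median CPM of the 3 liver-rich libraries (horizontal, log scale), with 0.1 added to both; the solid line marks equal levels and the dashed lines 4-fold differences from the median. Tubule and collecting duct genes lie at the upper left, with UMOD at 2452 CPM, plasma protein genes at the lower right, with ALB at 11.1 CPM, and gluconeogenesis genes along the line of equal levels; TERT, under 10 CPM in every library, is added for reference.

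The 7 segment lists together held 131 symbols, of which 122 were in the table and 107 reached 10 CPM in 1 of the 4 libraries. 81 (75.7%) were at least 4-fold above and 3 (2.80%) at least 4-fold below the 3 liver-rich libraries, beside 10.7% and 4.95% over all compared genes. With TMM scaling 76 and 4 of 106 were, beside 544 and 727 of 9519 compared genes. The same 10.7% and 4.95% stand beside the counts of each list below. FOLR1, which is uncertain as described below, is among the 3. The other 23 of the 107 lay between, and the 15 below 10 CPM in all 4 libraries were not compared. The counts of all 122 genes summed to 4.1% of immortalized 2 (95% exact binomial interval 4.09 to 4.11%), against 0.559, 0.424 and 0.427% of the 3 liver-rich libraries. In the other 14 libraries the sum was 0.0411 to 0.15%. The median log2 ratio of the 107 was 5.40, beside 0.83 over all compared genes. It was 6.16, beside 0.85, when the 0.5 CPM was not added. There both sides of the ratio were instead raised to at least the floor of 3 counts. Since the contrast chose the libraries, nothing is read from the difference between these shares and medians. In such bulk libraries fewer cells of a type and less RNA per cell cannot be told apart.

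The glomerulus was represented by its podocyte genes. 7 of 10 lay at least 4-fold above the 3 liver-rich libraries, or 5 with TMM scaling, and 0 at least 4-fold below. NPHS1, nephrin of the slit diaphragm, had 42.7 CPM in immortalized 2, against 0, 0 and 0 CPM in the 3 liver-rich libraries. Against the floor of 3 counts in a library this is at least 169.7-fold higher. PTPRO, a podocyte phosphatase, had 86.9 CPM in immortalized 2, against 0.0775, 0.3 and 0 CPM in the 3 liver-rich libraries, and PODXL, the sialomucin podocalyxin of podocytes and endothelium, had 193 CPM in immortalized 2, against 3.64, 22.7 and 8.22 CPM in the 3 liver-rich libraries. WT1, the podocyte transcription factor, had 18 CPM in immortalized 2, against 0.0775, 0.3 and 0.168 CPM in the 3 liver-rich libraries. NPHS1, PTPRO and WT1 were thus at 0 or within a few counts in the liver-rich libraries, whereas PODXL was present in all 4. SYNPO and PLA2R1 were among the 3 members that did not reach the 4-fold margin. The collagen chains of the glomerular basement membrane were high as well: COL4A3 had 296 CPM in immortalized 2, against 0.155, 5.7 and 3.77 CPM in the 3 liver-rich libraries, and COL4A4 had 146 CPM in immortalized 2, against 0.62, 7.2 and 2.94 CPM in the 3 liver-rich libraries.

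Genes of proximal tubule transport made up the longest segment list. 24 of 36, of which 30 reached 10 CPM, lay at least 4-fold above and 0 at least 4-fold below. The list took 1.9% of the counts of immortalized 2 (interval 1.89 to 1.91%), against 0.0545, 0.0531 and 0.0562% of the 3 liver-rich libraries. The receptors that retrieve filtered protein were among the highest ratios. LRP2, megalin, had 2808 CPM in immortalized 2, against 0.62, 1.8 and 0.335 CPM in the 3 liver-rich libraries, which is 1559-fold the highest of the 3. CUBN, cubilin, its partner, had 2201 CPM in immortalized 2, against 0.232, 0.75 and 1.85 CPM in the 3 liver-rich libraries, and AMN, which brings cubilin to the membrane, had 259 CPM in immortalized 2, against 0, 0.225 and 2.01 CPM in the 3 liver-rich libraries. All 3 parts of the uptake complex were near absent in the liver-rich libraries.

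Sodium-coupled carriers of the early and of the late proximal tubule were both present in immortalized 2. SLC5A2, the glucose carrier SGLT2 of the early tubule, had 469.6 CPM in immortalized 2, against 0.852, 0.525 and 1.34 CPM in the 3 liver-rich libraries. SLC5A1, SGLT1 of the late tubule, had 35 CPM in immortalized 2, against 2.25, 11.5 and 10.7 CPM in the 3 liver-rich libraries and missed the 4-fold margin. SLC34A1, the phosphate carrier NaPi-IIa, had 469 CPM in immortalized 2, against 0.0775, 0 and 0 CPM in the 3 liver-rich libraries, and SLC34A3, NaPi-IIc, had 69 CPM in immortalized 2, against 0, 0.075 and 0 CPM in the 3 liver-rich libraries. Of the amino acid carriers, SLC6A19, for neutral amino acids, had 83.5 CPM in immortalized 2, against 0, 0 and 0 CPM in the 3 liver-rich libraries. SLC3A1, the heavy chain of the cystine carrier, had 401 CPM in immortalized 2, against 1.01, 0.825 and 1.01 CPM in the 3 liver-rich libraries, while its light chain SLC7A9 reached only 2.40-fold, at 53.7 CPM in immortalized 2, against 6.43, 22.4 and 12.1 CPM in the 3 liver-rich libraries. SLC13A3, a dicarboxylate carrier, had 2294 CPM in immortalized 2, against 29.2, 15.3 and 15 CPM in the 3 liver-rich libraries, and SLC5A12, a lactate carrier, had 1314 CPM in immortalized 2, against 3.72, 9.53 and 10.1 CPM in the 3 liver-rich libraries. AQP1, the water channel of the proximal tubule and of endothelium, had 3168 CPM in immortalized 2, against 9.53, 45.6 and 40.3 CPM in the 3 liver-rich libraries, and up to 499.6 CPM in the other 14 libraries.

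Carriers that secrete drugs and organic ions split within their families. SLC22A6 (OAT1), the basolateral organic anion carrier, had 1051 CPM in immortalized 2, against 0.0775, 0.075 and 0 CPM in the 3 liver-rich libraries, and SLC22A8 (OAT3) had 532 CPM in immortalized 2, against 0, 0 and 0.0839 CPM in the 3 liver-rich libraries. SLC22A2 (OCT2), the kidney organic cation carrier, had 388 CPM in immortalized 2, against 40.8, 1.43 and 9.64 CPM in the 3 liver-rich libraries. On the apical side SLC47A2 (MATE2) had 614 CPM in immortalized 2, against 0, 0 and 0.839 CPM in the 3 liver-rich libraries, while SLC47A1 (MATE1) had 3 counts in immortalized 2. SLC22A12, the urate exchanger URAT1 of human kidney, had 1 count in immortalized 2, against 0 in the liver-rich libraries. UOX, urate oxidase, which breaks urate down and is lost in humans, had 1282 CPM in immortalized 2, against 80.2, 20.6 and 38.4 CPM in the 3 liver-rich libraries. SLC22A7 (OAT2) went the other way, at 81.4 CPM in immortalized 2, against 458, 274 and 124 CPM in the 3 liver-rich libraries. Members at 3 counts or fewer in immortalized 2 numbered 4 of 36, namely SLC22A12, SLC22A13, SLC6A13 and SLC47A1.

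**Figure D2:**
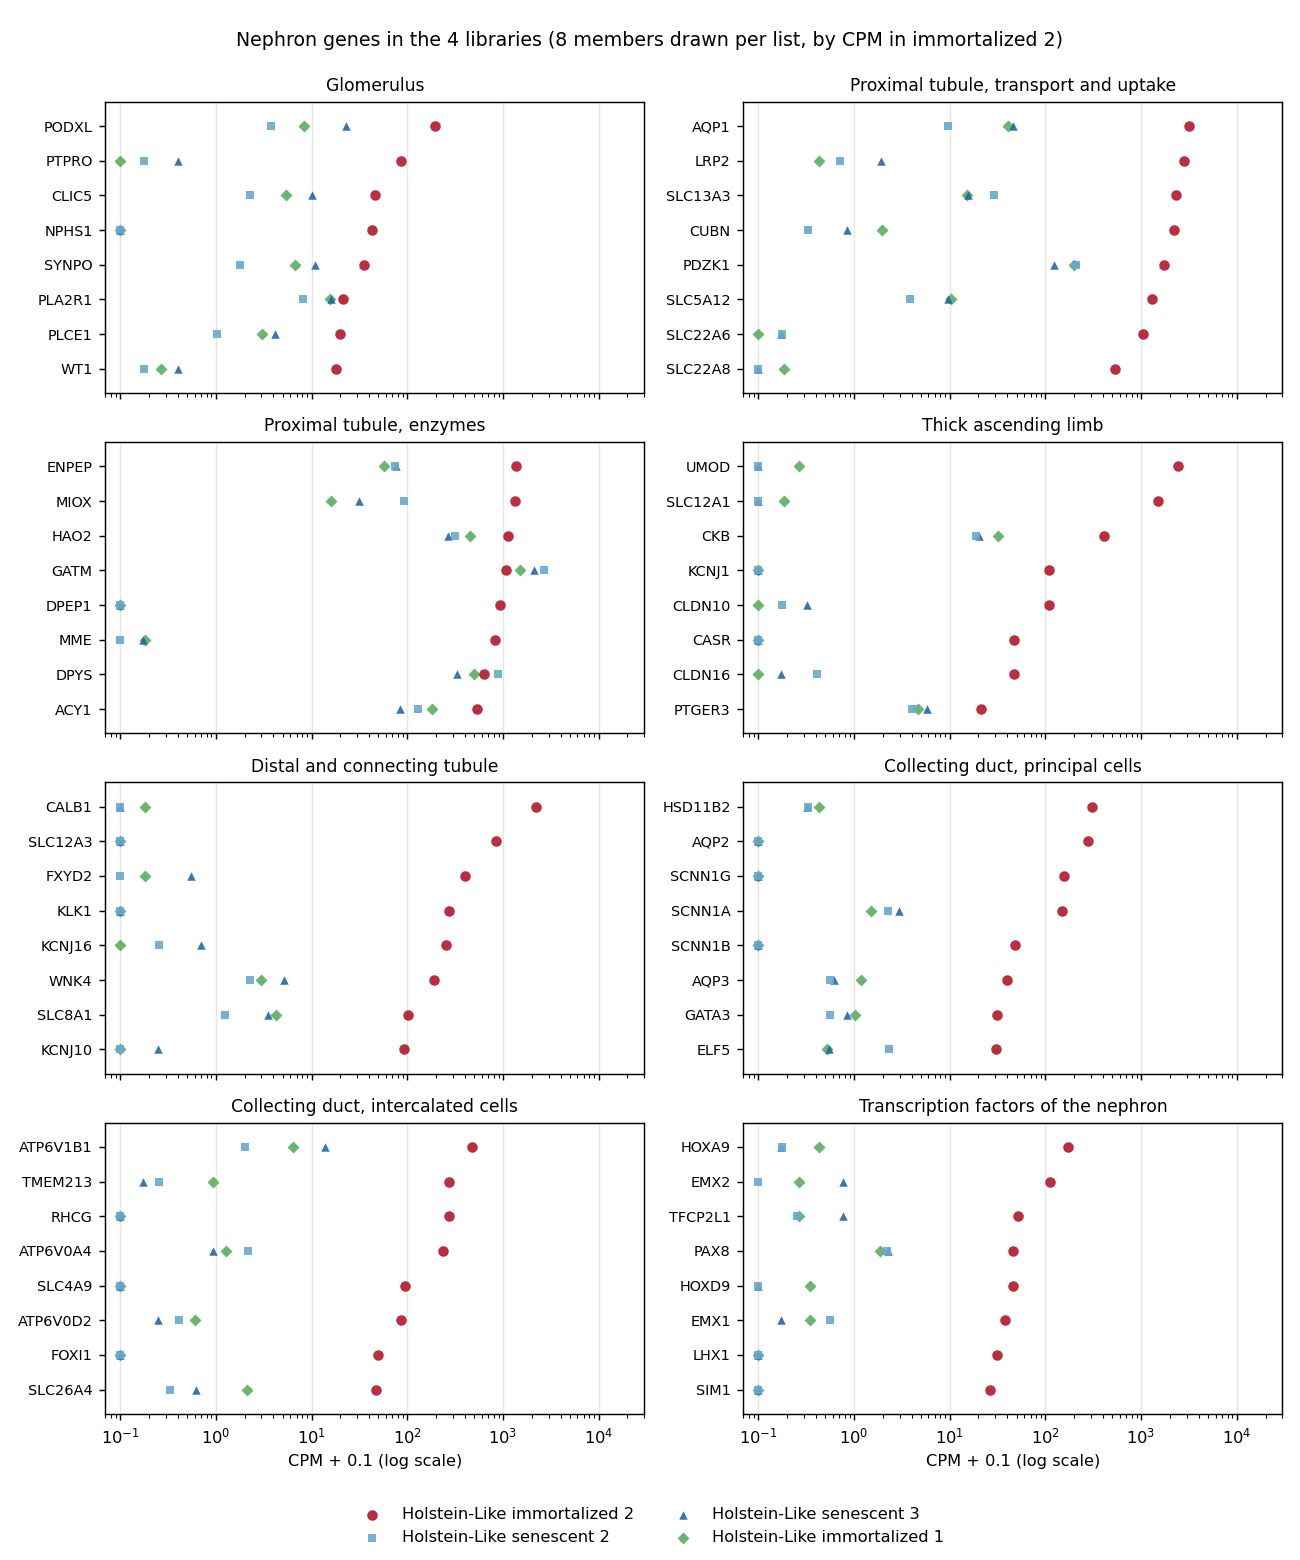
CPM (log scale, 0.1 added) of the 8 members of each list with the highest level in Holstein-Like immortalized 2 among those drawn, 1 panel per list; red circles are immortalized 2, and squares, triangles and diamonds are senescent 2, senescent 3 and immortalized 1. The red circle is the rightmost symbol for every gene drawn except GATM and DPYS among the proximal tubule enzymes.

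Enzymes of the proximal tubule were less uniform, and many of them are known from liver as well. 8 of 24, of which 21 reached 10 CPM, lay at least 4-fold above and 2 at least 4-fold below. Several brush border peptidases were among them. DPEP1, a dipeptidase, had 928 CPM in immortalized 2, against 0, 0 and 0 CPM in the 3 liver-rich libraries. MME, neprilysin, had 831 CPM in immortalized 2, against 0, 0.075 and 0.0839 CPM in the 3 liver-rich libraries. ANPEP, aminopeptidase N, had 486 CPM in immortalized 2, against 35.2, 11 and 3.02 CPM in the 3 liver-rich libraries. MIOX, the kidney enzyme that opens the inositol ring, had 1344 CPM in immortalized 2, against 93.2, 31.4 and 15.9 CPM in the 3 liver-rich libraries, and CYP24A1, which inactivates vitamin D in the tubule, had 58.4 CPM in immortalized 2, against 0, 0 and 0 CPM in the 3 liver-rich libraries. ACY1, an aminoacylase, and HAO2, a peroxisomal oxidase, were above all 3 libraries by less than 4-fold. MEP1B, a meprin chain, was lower, at 0 CPM in immortalized 2, against 19.5, 16.2 and 15.1 CPM in the 3 liver-rich libraries. FOLR1, the folate receptor, occurs in the table under 2 Ensembl identifiers with opposite values: 1 had 47.5 CPM in immortalized 2, against 8.37, 7.18 and 11.2 CPM in the 3 liver-rich libraries, and the other 0 CPM, against 84.3, 86.1 and 102 CPM. The first lay at least 4-fold above by column total, and this call was lost with TMM scaling. The second was the row used in the list, so FOLR1 is among the 2 counted below. Reads that fit both copies can be split between them in counting, so FOLR1 is uncertain.

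The thick ascending limb was marked by UMOD, uromodulin, the main protein of normal urine, which had 2452 CPM in immortalized 2, against 0, 0 and 0.168 CPM in the 3 liver-rich libraries. In the 14 libraries outside the comparison it reached at most 0.284 CPM. SLC12A1, the furosemide-sensitive salt carrier NKCC2, had 1509.5 CPM in immortalized 2, against 0, 0 and 0.0839 CPM in the 3 liver-rich libraries, and KCNJ1, the potassium channel ROMK that recycles its potassium, had 109 CPM in immortalized 2, against 0, 0 and 0 CPM in the 3 liver-rich libraries. Both were at 0 or 1 count in the liver-rich libraries. The paracellular pathway for magnesium and calcium was present with CLDN16 at 46.4 CPM in immortalized 2, against 0.31, 0.075 and 0 CPM in the 3 liver-rich libraries and CLDN19 at 21.2 CPM in immortalized 2, against 0, 0 and 0 CPM in the 3 liver-rich libraries. CASR, the calcium-sensing receptor that restrains that pathway, had 47.2 CPM in immortalized 2, against 0, 0 and 0 CPM in the 3 liver-rich libraries. CLDN14, a claudin that lowers calcium recovery there in mice, was the exception, at 0.182 CPM in immortalized 2, against 8.13, 10.6 and 21.9 CPM in the 3 liver-rich libraries. In all, 9 of 12 members, of which 11 reached 10 CPM, lay at least 4-fold above and 1 at least 4-fold below.

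Distal convoluted and connecting tubule genes were at least 4-fold above in 11 of 14, of which 12 reached 10 CPM, and below in 0. SLC12A3, the thiazide-sensitive carrier NCC, had 844 CPM in immortalized 2, against 0, 0 and 0 CPM in the 3 liver-rich libraries, which is at least 3356-fold higher. CALB1, calbindin, which ferries calcium across the cell, had 2217 CPM in immortalized 2, against 0, 0 and 0.0839 CPM in the 3 liver-rich libraries. TRPV5, the apical calcium channel, had 18.9 CPM in immortalized 2, against 0, 0 and 0 CPM in the 3 liver-rich libraries, and SLC8A1, the exchanger that extrudes calcium, had 101 CPM in immortalized 2, against 1.16, 3.38 and 4.11 CPM in the 3 liver-rich libraries. Entry, transfer and exit of calcium were thus all present in immortalized 2. KLK1, tissue kallikrein of the connecting tubule, had 275 CPM in immortalized 2, against 0, 0 and 0 CPM in the 3 liver-rich libraries. PVALB, parvalbumin of the early distal tubule in mice and rats, had 1 count in immortalized 2, against 0 in the 3 liver-rich libraries.

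Principal cells of the collecting duct were present with 10 of 12 genes at least 4-fold above and 0 below; the other 2 were under 10 CPM. AQP2, the vasopressin-regulated water channel, had 277 CPM in immortalized 2, against 0, 0 and 0 CPM in the 3 liver-rich libraries, and it was at 0 counts in all 17 other libraries. Of those, the Holstein-Like primary libraries held only 1424479 to 1466911 counts each. AVPR2, the vasopressin receptor that controls it, had 18.8 CPM in immortalized 2, against 0, 0 and 0 CPM in the 3 liver-rich libraries. The 3 chains of the epithelial sodium channel followed. SCNN1A had 148 CPM in immortalized 2, against 2.17, 2.85 and 1.43 CPM in the 3 liver-rich libraries. SCNN1B had 47.7 CPM in immortalized 2, against 0, 0 and 0 CPM in the 3 liver-rich libraries. SCNN1G had 156 CPM in immortalized 2, against 0, 0 and 0 CPM in the 3 liver-rich libraries. The beta and gamma chains were at 0 counts in the liver-rich libraries, and the alpha chain was not. HSD11B2, which protects the mineralocorticoid receptor from cortisol, had 306 CPM in immortalized 2, against 0.232, 0.225 and 0.335 CPM in the 3 liver-rich libraries, and NR3C2, that receptor, had 26.6 CPM in immortalized 2, against 1.08, 3.98 and 2.94 CPM in the 3 liver-rich libraries. AQP3, the basolateral water channel, had 40.1 CPM in immortalized 2, against 0.465, 0.525 and 1.09 CPM in the 3 liver-rich libraries, while AQP4, another basolateral one, had only 0.637 CPM in immortalized 2, against 0.0775, 0 and 0 CPM in the 3 liver-rich libraries.

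Intercalated cells, which secrete acid or base, were represented by 12 of 14 genes at least 4-fold above, or 10 with TMM scaling, and 0 below. ATP6V1B1, the proton pump subunit of these cells, had 477 CPM in immortalized 2, against 1.94, 13.8 and 6.29 CPM in the 3 liver-rich libraries, and ATP6V0A4 had 236 CPM in immortalized 2, against 2.09, 0.825 and 1.17 CPM in the 3 liver-rich libraries. Among 20 proton pump subunits, listed after values were seen, 6 lay at least 4-fold above. They were ATP6V1B1, ATP6V1C2, ATP6V1G3, ATP6V0A4 and ATP6V0D2, which are the forms of specialised cells, and ATP6V1H, which occurs in all pumps. With TMM scaling 4 did, without ATP6V1G3 and ATP6V1H. FOXI1, the transcription factor of intercalated cells, had 49.1 CPM in immortalized 2, against 0, 0 and 0 CPM in the 3 liver-rich libraries. RHCG, an ammonia channel, had 276 CPM in immortalized 2, against 0, 0 and 0 CPM in the 3 liver-rich libraries. SLC26A4, pendrin, and SLC4A9, both of base-secreting cells, had 47.2 and 94 CPM in immortalized 2, against at most 2.01 and 0 CPM in the 3 liver-rich libraries.

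Genes of urea and osmolyte handling in the medulla were mixed, with 2 of 6 at least 4-fold above and 3 under 10 CPM in all 4 libraries. SLC14A2, the urea carrier of the inner medulla, had 1.46 CPM in immortalized 2, against 0, 0 and 0 CPM in the 3 liver-rich libraries, and SLC6A12, which takes up betaine as an osmolyte, had 3.46 CPM in immortalized 2, against 1.01, 6.83 and 1.01 CPM in the 3 liver-rich libraries. SLC14A1, the urea carrier of vasa recta, had 2.28 CPM in immortalized 2, against 0.387, 0.525 and 0.503 CPM in the 3 liver-rich libraries. AKR1B1, which makes sorbitol, had 61.6 CPM in immortalized 2, against 2.32, 3.08 and 5.62 CPM in the 3 liver-rich libraries. SLC6A6, the taurine carrier, had 19.2 CPM in immortalized 2, against 1.32, 3.3 and 2.52 CPM in the 3 liver-rich libraries, and its 4-fold call was lost with TMM scaling. NFAT5, the factor that answers high salt, had 47.8 CPM in immortalized 2, against 16, 32.3 and 19.1 CPM in the 3 liver-rich libraries, which is above all 3 libraries by less than 4-fold and not above them with TMM scaling. Genes of the kidney as an endocrine organ were mixed. KL, klotho, the co-receptor for the phosphate hormone FGF23, had 495 CPM in immortalized 2, against 0.542, 0.075 and 0 CPM in the 3 liver-rich libraries, which is 913-fold the highest of the 3. PTH1R, the parathyroid hormone receptor, had 286 CPM in immortalized 2, against 8.06, 10.9 and 12.9 CPM in the 3 liver-rich libraries. EPO, erythropoietin, had 3 counts in immortalized 2, a ratio of 3.26-fold, with a 95% counting interval of 0.261 to 171-fold, so its level could not be told from that of the others.

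Transcription factors of the kidney and of the liver lay on opposite sides. All 16 nephron factors that reached 10 CPM, of 30 found, were at least 4-fold above, as were all 13 that reached it with TMM scaling. 8 of the 16 lay at least 4-fold above all 17 other libraries, beside 3.88% over all genes at 10 CPM or more in immortalized 2. The list summed to 0.0862% of the counts of immortalized 2, and to 0.0392 to 0.0768% in the Simmental-Like libraries. PAX2, which specifies the kidney, had 25.5 CPM in immortalized 2, against 0, 0 and 0 CPM in the 3 liver-rich libraries, and LHX1, needed for its tubules, had 31.2 CPM in immortalized 2, against 0, 0 and 0 CPM in the 3 liver-rich libraries. SIX2 and EYA1, which mark nephron progenitors before birth, were at 0 counts in immortalized 2, against 0 and at most 1.7 CPM in the 3 liver-rich libraries. HOX genes, which record position along the body, were listed after values were seen, and some, HOXA9 and HOXD9 among them, are also nephron list members. All 14 that reached 10 CPM of 35 were at least 4-fold above the 3 liver-rich libraries, and all 10 that reached it with TMM scaling. 1 of the 14 lay at least 4-fold above all 17 other libraries, beside the same 3.88%. HOX genes summed to 0.0649% of immortalized 2, and to 0.0356 to 0.0589% of the Simmental-Like libraries. HOXA9 had 173 CPM in immortalized 2, against 0.0775, 0.075 and 0.335 CPM in the 3 liver-rich libraries, though it also had 70.3 to 182 CPM in the Simmental-Like libraries, and HOXD9 had 45.9 CPM in immortalized 2, against 0, 0 and 0.252 CPM in the 3 liver-rich libraries. Liver factors were lower. 10 of 17 (58.8%) lay at least 4-fold below and 0 above, beside 4.95% and 10.7% over all compared genes. FOXA2, a pioneer factor of endoderm, had 0 CPM in immortalized 2, against 18.4, 27.4 and 26.2 CPM in the 3 liver-rich libraries, and ONECUT1, which acts in hepatocytes and bile ducts, had 0 CPM in immortalized 2, against 18, 39.2 and 18 CPM in the 3 liver-rich libraries. HNF4A, used by both hepatocytes and proximal tubule, was shared, at 218 CPM in immortalized 2, against 123, 220.2 and 106 CPM in the 3 liver-rich libraries.

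Genes of tubule epithelium at large were also high in the library. ATP1B1, a beta chain of the sodium pump that powers these carriers, had 1416 CPM in immortalized 2, against 38.5, 48.5 and 40.8 CPM in the 3 liver-rich libraries. CLDN2, a leaky claudin of the proximal tubule, had 1656 CPM in immortalized 2, against 53.9, 65.9 and 57.3 CPM in the 3 liver-rich libraries, while CLDN1, a claudin of hepatocyte junctions, had 6.65 CPM in immortalized 2, against 81.3, 52.4 and 41.9 CPM in the 3 liver-rich libraries. The claudin family, listed after values were seen, thus divided, with 6 of 13, of which 12 reached 10 CPM, at least 4-fold above and 3 at least 4-fold below. So did the aquaporins, also listed after values were seen. AQP8 and AQP9 of hepatocytes had 0 and 0.182 CPM in immortalized 2, against at least 108 and 108 CPM in the 3 liver-rich libraries. SPP1, osteopontin, had 1605 CPM in immortalized 2, against 1.24, 5.1 and 13.3 CPM in the 3 liver-rich libraries. KRT18, a keratin of simple epithelia, was below all 3 libraries, at 78.7 CPM in immortalized 2, against 194, 196 and 177 CPM in the 3 liver-rich libraries, and at least 4-fold below with TMM scaling. KRT8, its partner, fell inside the range of the 3 libraries. Over the whole solute carrier superfamily 209 of 332 SLC genes reached 10 CPM. 62 of these (29.7%) lay at least 4-fold above and 20 (9.57%) at least 4-fold below, beside 10.7% and 4.95% over all compared genes, and with TMM scaling 47 and 23 did. 40 of the 183 SLC genes at 10 CPM or more in immortalized 2 lay at least 4-fold above all 17 other libraries, beside 3.88% over all genes at that level. The SLC set was taken up after values were seen and holds the carriers already counted above. Nothing is therefore read from its shares.

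The products that liver cells export were lower in immortalized 2. 45 of 46 plasma protein genes (97.8%) lay at least 4-fold below the lowest of the 3 liver-rich libraries and 0 above, beside 4.95% and 10.7% over all compared genes. They summed to 0.352% of its counts (interval 0.348 to 0.355%), against 29, 31.6 and 32.2% in the 3 liver-rich libraries. ALB, serum albumin, had 11.1 CPM in immortalized 2, against 81265, 36362 and 41947 CPM in the 3 liver-rich libraries. VTN, vitronectin, had 0 CPM in immortalized 2, against 5381, 3762 and 5423 CPM in the 3 liver-rich libraries, which is at least 13776-fold lower against 3 counts. APCS, serum amyloid P, also had 0 CPM in immortalized 2, against 1876, 1190.4 and 1118 CPM in the 3 liver-rich libraries. Other genes among those farthest below were AGP, APOA2, KNG1, SERPINA3-1, HPX, CPS1, CYP2E1, C8A and PLG. TF, transferrin, was less low, at 1152 CPM in immortalized 2, against 35699.97, 14792 and 18841 CPM in the 3 liver-rich libraries, and C5, a complement protein, was the 1 member that missed the 4-fold margin, at 503 CPM in immortalized 2, against 1799, 2546 and 1939 CPM in the 3 liver-rich libraries. As a share of the lowest liver-rich library, the level of the 46 genes in immortalized 2 had a median of 0.266% and ran to 28.0%, with 30 genes under 1% and 19 under 0.1%.

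Several pathways are known to run through both organs. In these, some members were higher in immortalized 2 and others lower, and some steps were present in all 4 libraries. In the angiotensin system AGT, the hormone precursor made in liver, had 0.455 CPM in immortalized 2, against 744, 920.3 and 603 CPM in the 3 liver-rich libraries. ENPEP, which trims angiotensin, had 1379 CPM in immortalized 2, against 74.8, 75.5 and 57.1 CPM in the 3 liver-rich libraries, and ACE, which produces it, had 51.1 CPM in immortalized 2, against 0.697, 2.03 and 1.68 CPM in the 3 liver-rich libraries. MME is given above, and AGTR1, the receptor, had 5.55 CPM in immortalized 2, against 25.4, 30.4 and 22.4 CPM in the 3 liver-rich libraries. ATP6AP2, a proton pump partner, had 212 CPM in immortalized 2, against 42.6, 34.7 and 35.7 CPM in the 3 liver-rich libraries, and its 4-fold call was lost with TMM scaling. The precursor was in the liver-rich libraries, and the enzymes of the brush border in immortalized 2.

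**Figure D3:**
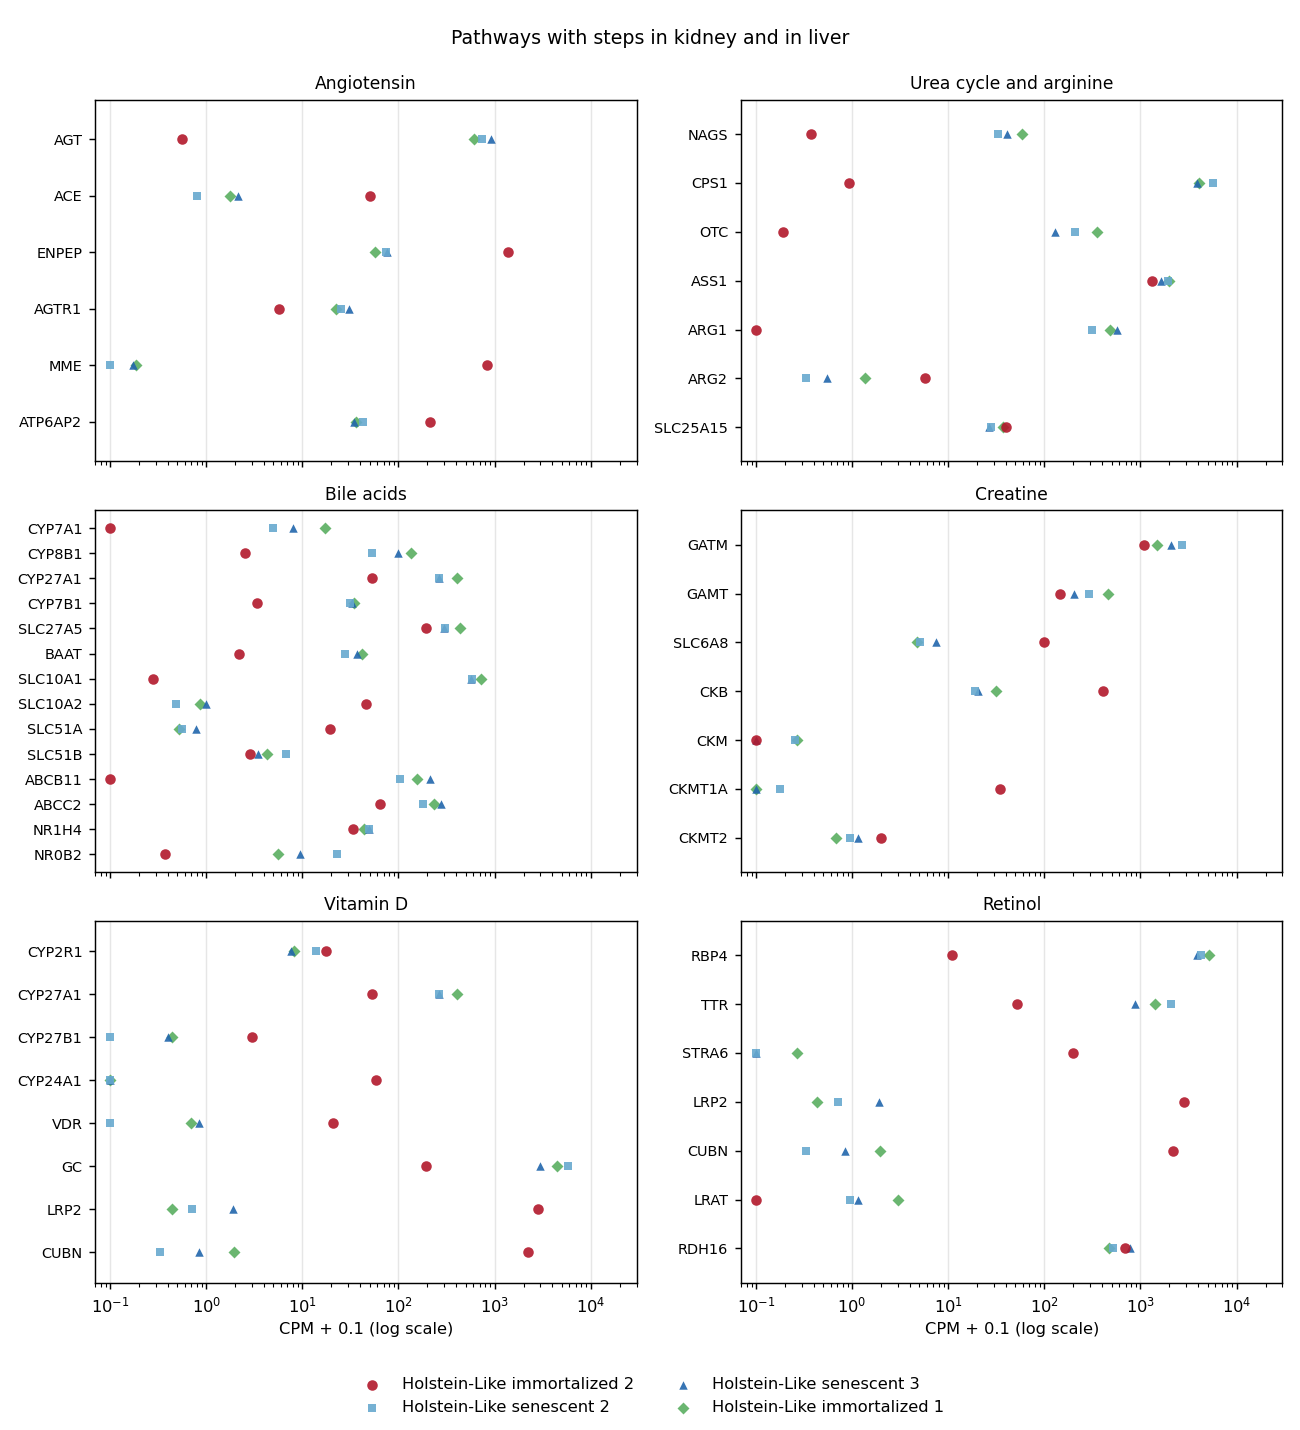
CPM (log scale, 0.1 added) of members of 6 pathways known to have steps in kidney and in liver, with red circles for Holstein-Like immortalized 2 and squares, triangles and diamonds for senescent 2, senescent 3 and immortalized 1. Within each panel the red circle changes sides, as from ENPEP at 1379 CPM to AGT at 0.455 CPM in immortalized 2.

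Of 7 measured genes of the urea cycle and arginine, of which 6 reached 10 CPM, 4 lay at least 4-fold below and 0 above. CPS1, its first enzyme, had 0.819 CPM in immortalized 2, against 5724, 3856 and 4059 CPM in the 3 liver-rich libraries, ARG1, its last, had 0 CPM in immortalized 2, against 310.00, 564 and 478 CPM in the 3 liver-rich libraries, and OTC had 0.091 CPM in immortalized 2, against 209, 128 and 352 CPM in the 3 liver-rich libraries. NAGS, which makes the activator of CPS1, had 0.273 CPM in immortalized 2, against 32.9, 40.6 and 58.2 CPM in the 3 liver-rich libraries. ASS1, which the proximal tubule uses to make arginine, had 1307 CPM in immortalized 2, against 1915, 1645 and 2000.5 CPM in the 3 liver-rich libraries. ARG2, the arginase outside the liver, had 5.64 CPM in immortalized 2, against 0.232, 0.45 and 1.26 CPM in the 3 liver-rich libraries, and SLC25A15, an ornithine carrier, 39.7 CPM in immortalized 2, against 27.9, 26.3 and 36.7 CPM in the 3 liver-rich libraries. ASS1 and SLC25A15 were thus close in all 4 libraries while 4 other members were at least 4-fold below.

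Bile acid genes split by site. SLC10A1 (NTCP), which loads bile acids into hepatocytes, had 0.182 CPM in immortalized 2, against 589, 567 and 726 CPM in the 3 liver-rich libraries, whereas SLC10A2 (ASBT), which reclaims them in ileum and proximal tubule, had 45.5 CPM in immortalized 2, against 0.387, 0.9 and 0.755 CPM in the 3 liver-rich libraries. SLC51A, a chain of the exit carrier, had 19.3 CPM in immortalized 2, against 0.465, 0.675 and 0.419 CPM in the 3 liver-rich libraries, but its partner SLC51B had 2.73 CPM in immortalized 2, against 6.66, 3.38 and 4.19 CPM in the 3 liver-rich libraries. Enzymes and pumps of bile formation were low. CYP7A1, the rate-limiting enzyme, had 0 CPM in immortalized 2, against 4.8, 7.8 and 17.2 CPM in the 3 liver-rich libraries, and ABCB11, the bile salt pump, had 0 CPM in immortalized 2, against 104, 213 and 156 CPM in the 3 liver-rich libraries. CYP8B1, CYP7B1, CYP27A1, BAAT and NR0B2 were also at least 4-fold below, and SLC27A5, ABCC2 and NR1H4 were below all 3 libraries by less.

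In creatine synthesis, the first enzyme GATM had 1087 CPM in immortalized 2, against 2685, 2089 and 1500.3 CPM in the 3 liver-rich libraries, and GAMT, the second, had 146 CPM in immortalized 2, against 291, 205 and 456 CPM in the 3 liver-rich libraries. Both were thus somewhat below all 3 liver-rich libraries, though GATM is best known from kidney. The genes that take up and use creatine were higher. SLC6A8, the creatine carrier, had 99.4 CPM in immortalized 2, against 4.96, 7.35 and 4.61 CPM in the 3 liver-rich libraries. CKB, the brain-type kinase, had 406 CPM in immortalized 2, against 18.9, 20.4 and 31.6 CPM in the 3 liver-rich libraries, and CKMT1A, the mitochondrial kinase, had 34.7 CPM in immortalized 2, against 0.0775, 0 and 0 CPM in the 3 liver-rich libraries. CKM and CKMT2, the muscle forms, had 0 and 1.91 CPM in immortalized 2, against at most 0.168 and 1.05 CPM in the 3 liver-rich libraries.

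For vitamin D, CYP2R1, which starts its activation in liver, had 17.4 CPM in immortalized 2, against 13.9, 7.58 and 8.13 CPM in the 3 liver-rich libraries. CYP27A1, which can do the same, had 52.7 CPM in immortalized 2, against 267, 264 and 407 CPM in the 3 liver-rich libraries. CYP27B1, the kidney enzyme that completes it, was low but highest in immortalized 2, at 2.91 CPM in immortalized 2, against 0, 0.3 and 0.335 CPM in the 3 liver-rich libraries. VDR, the receptor, had 20.7 CPM in immortalized 2, against 0, 0.75 and 0.587 CPM in the 3 liver-rich libraries, and GC, the carrier protein in plasma, had 192 CPM in immortalized 2, against 5801, 2998 and 4479 CPM in the 3 liver-rich libraries. For retinol, the plasma carrier RBP4 had 10.8 CPM in immortalized 2, against 4315, 3880.4 and 5150.3 CPM in the 3 liver-rich libraries, and TTR, which binds RBP4, had 51.7 CPM in immortalized 2, against 2097, 884 and 1423 CPM in the 3 liver-rich libraries. STRA6, the receptor for RBP4, had 198 CPM in immortalized 2, against 0, 0 and 0.168 CPM in the 3 liver-rich libraries. LRAT, which stores retinol as ester, had 0 CPM in immortalized 2, against 0.852, 1.05 and 2.94 CPM in the 3 liver-rich libraries, while RDH16 was inside the range of the 3 libraries.

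Ketone use and ascorbate synthesis divided the libraries as well. OXCT1, which burns ketone bodies and is silent in hepatocytes, had 705 CPM in immortalized 2, against 4.42, 6.08 and 8.3 CPM in the 3 liver-rich libraries. BDH1, a ketone dehydrogenase, had 110.3 CPM in immortalized 2, against 0.155, 0.075 and 0 CPM in the 3 liver-rich libraries. GULO, the last enzyme of ascorbate synthesis, had 1.46 CPM in immortalized 2, against 263, 189.9 and 348 CPM in the 3 liver-rich libraries. GPX3, the plasma glutathione peroxidase that the proximal tubule secretes in humans and mice, took the eighth most counts of immortalized 2, at 8309 CPM in immortalized 2, against 12.8, 2892 and 3495 CPM in the 3 liver-rich libraries, so that senescent 2 stood apart from the other 2 liver-rich libraries for this gene.

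In metabolism that hepatocytes and proximal tubule are known to share, the 4-fold counts of 3 lists were set beside 10.7% above and 4.95% below over all compared genes. Of 17 genes of gluconeogenesis and fructose use 0 lay at least 4-fold above and 1 (5.88%) below, SLC38A3, a glutamine carrier. PCK1, which commits carbon to glucose, had 2088 CPM in immortalized 2, against 755, 1154 and 2086 CPM in the 3 liver-rich libraries. G6PC, which releases glucose, had 596 CPM in immortalized 2, against 451, 339.98 and 321 CPM in the 3 liver-rich libraries. Over 26 genes of amino acid breakdown 3 (11.5%) lay at least 4-fold above, namely PRODH2, ALDH4A1 and GCDH, and 2 (7.69%) below. These shares are near the 10.7% and 4.95% over all compared genes. With TMM scaling 0 lay at least 4-fold above and 5 below. The median log2 ratios of these lists were 0.41 and 0.53 by column total, and -0.51 and -0.38 with TMM scaling, so their sign flips. The 26 genes of fatty acid oxidation and ketone bodies had a median of 0.00 by column total and -0.78 with TMM scaling. 3 of them (11.5%), OXCT1, BDH1 and FABP3, lay at least 4-fold above and 1 (3.85%), FABP1, below, which is again near the shares over all compared genes. With TMM scaling 3 lay at least 4-fold above and 3 below. FABP1, the liver fatty acid carrier, had 3.46 CPM in immortalized 2, against 1096, 232 and 243 CPM in the 3 liver-rich libraries, and FABP3, the heart form also known from distal tubule, had 75.6 CPM in immortalized 2, against 0.0775, 0.375 and 0.168 CPM in the 3 liver-rich libraries.

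**Figure D4:**
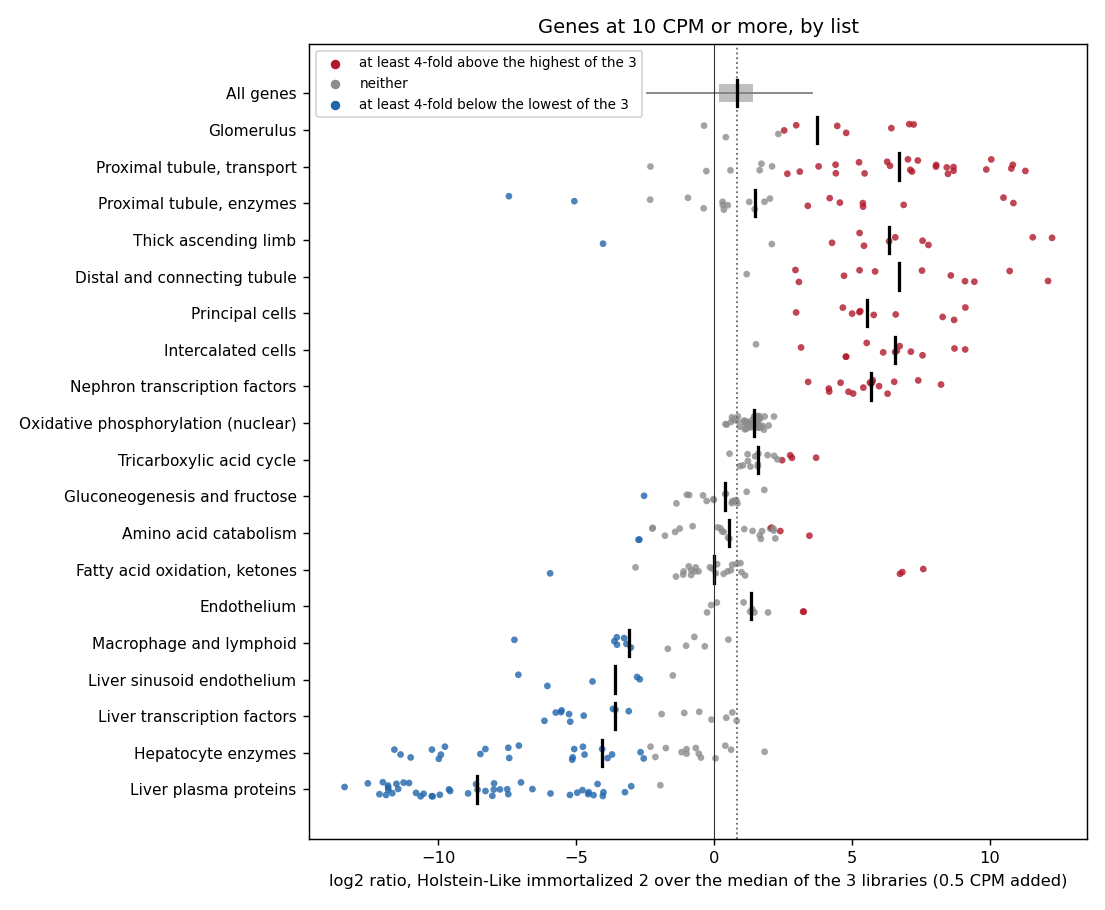
Log2 ratio of Holstein-Like immortalized 2 to the median of the 3 liver-rich libraries (0.5 CPM added) for the members of 19 lists at 10 CPM or more, 1 point per gene coloured by its 4-fold call, with the list's median as a black bar; the top row gives all compared genes as the 5th to 95th percentile (line), quartiles (box) and median, which the dotted line repeats. Nephron lists lie to the right of it, with a median of 6.71 for proximal tubule transport, and plasma proteins to the left, at -8.60; the medians of the gluconeogenesis and amino acid lists lie near 0 and change sign with TMM scaling.

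Mitochondrial transcripts were the most counted genes of immortalized 2. The 13 mitochondrially encoded genes took 18% of its counts (interval 18 to 18.05%), against 5.49, 3.14 and 4.48% in the 3 liver-rich libraries. It was not the highest of the series: Holstein-Like senescent 1 had 27.7%. COX1, a subunit of cytochrome oxidase, had 66209 CPM in immortalized 2, against 19879, 15537 and 18299.7 CPM in the 3 liver-rich libraries. MT-CYB, ATP6, ND1, COII, COX3, MT-ND4 and MT-ND3 were also among the 10 genes with the most counts. All 13 lay above all 3 libraries, by column total and with TMM scaling, beside 68.3% and 2924 of 9519 compared genes. 3 of them (23.1%) lay at least 4-fold above by column total, beside 10.7% over all compared genes, and 0 with TMM scaling or DESeq2 size factors.

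The nuclear genes of respiration were also higher, by less. 47 of 48 oxidative phosphorylation genes lay above all 3 libraries by column total, as did 68.3% of all compared genes. 0 of them did so by 4-fold, and the other 1, COX7B, was under 10 CPM. Their median log2 ratio was 1.45, beside 0.83 over all compared genes. With TMM scaling 21 of 47 lay above all 3, beside 2924 of 9519 compared genes. The median was then 0.55, beside -0.07. Of 17 genes of the tricarboxylic acid cycle 4 (23.5%) lay at least 4-fold above, beside 10.7% over all compared genes. CS, IDH2 and SUCLA2 were among them. With TMM scaling 1 did, beside 544 of 9519 compared genes. IDH2, the mitochondrial isocitrate dehydrogenase, had 755 CPM in immortalized 2, against 51.3, 60.3 and 57.5 CPM in the 3 liver-rich libraries. PPARGC1A, the coactivator PGC-1alpha that drives mitochondrial genes, had 187 CPM in immortalized 2, against 20.4, 33.5 and 15 CPM in the 3 liver-rich libraries, which is 5.59-fold the highest of the 3. With TMM scaling this ratio was 3.36-fold and with DESeq2 size factors 3.47-fold, so the 4-fold call of PPARGC1A was lost under both. Holstein-Like senescent 1 had 118 CPM and the Simmental-Like libraries 1.94 to 24.8 CPM. ESRRA, its nuclear receptor partner, had 188 CPM in immortalized 2, against 64.8, 68 and 47.4 CPM in the 3 liver-rich libraries. Of 12 PGC-1 coactivators and partners 8 reached 10 CPM, of which 6 lay above all 3 libraries and 2 below all 3. 2 (25%) lay at least 4-fold above, beside 10.7% over all compared genes. Their median log2 ratio was 0.78, beside 0.83 over all compared genes. With TMM scaling 2 of 7 lay above all 3 and 3 below, 0 at least 4-fold above and 1 at least 4-fold below. The median was then -0.08, beside -0.07. Whether PPARGC1A and the mitochondrial share are linked was not tested. With mitochondrially encoded genes left out of the column totals, 1350 genes lay at least 4-fold above and 466 at least 4-fold below.

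**Figure D5:**
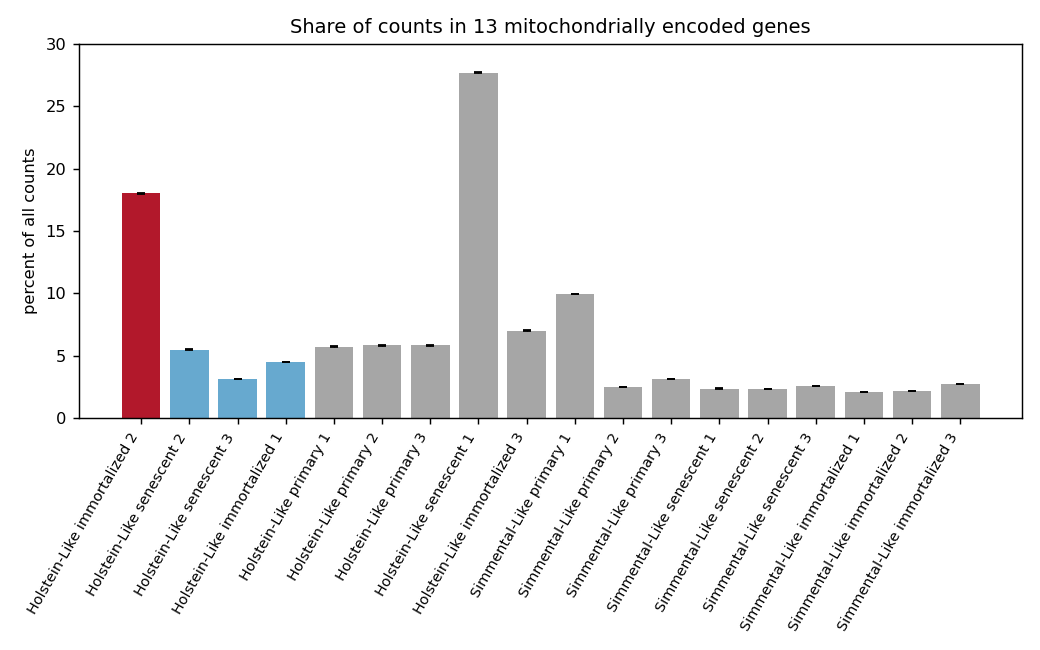
Percent of all counts in 13 mitochondrially encoded genes in each of the 18 libraries, with Holstein-Like immortalized 2 in red, the 3 liver-rich libraries in blue and the other 14 in grey; bars start at 0 and the small error bars are 95% exact binomial intervals. Immortalized 2 stands at 18%, below Holstein-Like senescent 1 at 27.7% and above the 16 others.

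TERT, the catalytic chain of telomerase that most body cells keep silent, had 60 counts in immortalized 2, which is 5.46 CPM, against 0, 0.6 and 0.0839 CPM in the 3 liver-rich libraries. The exact Poisson interval of the value in immortalized 2 was 4.17 to 7.03 CPM, and the highest value among the other 14 libraries was 0.143 CPM. In the RefSeq table of the assembly ARS-UCD2.0 the next protein-coding gene on 1 side of TERT is SLC6A18, and SLC6A19 follows it. Both are amino acid carriers of the proximal tubule, with 206 and 83.5 CPM in immortalized 2, against at most 0.15 and 0 CPM in the 3 liver-rich libraries. CLPTM1L, next to TERT on the other side, had 108 CPM in immortalized 2, against 149, 107 and 95.9 CPM in the 3 liver-rich libraries. The strand setting of the counting is not given in the sources used here, so reads of TERT and of transcripts running past its ends cannot be told apart.

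Of 8 genes that the study's stages point to, 2 reached 10 CPM in any of the 4 libraries, and neither lay at least 4-fold above or below. The other 6, TERT among them, were under 10 CPM and received no 4-fold call. MKI67, which marks dividing cells, had 5.64 CPM in immortalized 2, against 2.48, 4.65 and 4.53 CPM in the 3 liver-rich libraries, and 94.8 to 489 CPM in the Simmental-Like libraries. CDKN2A, the locus of the senescence inhibitor p16, had 0 CPM in immortalized 2, against 0.232, 0.9 and 2.35 CPM in the 3 liver-rich libraries, and CDKN2B, its neighbour, 0.091 CPM in immortalized 2, against 0.697, 2.33 and 2.6 CPM in the 3 liver-rich libraries. CDKN1A, the inhibitor p21, had 19.6 CPM in immortalized 2, against 100.5, 41.5 and 21 CPM in the 3 liver-rich libraries. LMNB1, a lamin that senescent cells lose, had 5.74 CPM in immortalized 2, against 4.11, 4.8 and 3.69 CPM in the 3 liver-rich libraries. MYC, a growth regulator, was the 1 gene of the 8 that lay above all 3 libraries at 10 CPM or more, at 28.1 CPM in immortalized 2, against 7.05, 6.3 and 7.88 CPM in the 3 liver-rich libraries. IL6, a secreted senescence factor, had 0 CPM in immortalized 2, against 0, 0.15 and 0 CPM in the 3 liver-rich libraries.

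Markers of other cell types were examined for the mixture a tissue would hold. Fibroblast genes took a small share of the counts in all 4 libraries: 0.185% of the counts of immortalized 2 fell in 18 such genes, against 0.324, 0.677 and 0.508% in the 3 liver-rich libraries and 5.68 to 8.27% in the Simmental-Like ones. Of the 17 fibroblast genes at 10 CPM or more 1, S100A4, lay at least 4-fold above and 1, FN1, below, beside 10.7% and 4.95% over all compared genes. With TMM scaling or DESeq2 size factors 0 lay above and 2 below, so the call of S100A4 was lost. FN1, fibronectin, is also a plasma protein made in liver. Endothelial genes were present. Of 11 found, 10 reached 10 CPM, and 2 of these (20%) lay at least 4-fold above and 0 below, with TMM scaling too. The median log2 ratio of the 10 was 1.35, or 0.51 with TMM scaling, beside 0.83 and -0.07 over all compared genes. The 2 were PLVAP, of fenestrated capillaries, at 263 CPM in immortalized 2, against 11.1, 34.7 and 27.1 CPM in the 3 liver-rich libraries, and EMCN, endomucin, at 52.8 CPM in immortalized 2, against 2.17, 5.18 and 5.79 CPM in the 3 liver-rich libraries. Genes of the liver sinusoid were lower: 5 of 6 lay at least 4-fold below, among them STAB2, a scavenger receptor, at 0.637 CPM in immortalized 2, against 82, 204 and 155 CPM in the 3 liver-rich libraries. 2 of the 6, STAB1 and MRC1, which are also expressed by macrophages, were at 10 CPM or more in immortalized 2, with STAB1 at 27.9 CPM in immortalized 2, against 79.4, 73.4 and 87.5 CPM in the 3 liver-rich libraries. Macrophage and lymphoid genes were at least 4-fold below in 7 of 16, of which 12 reached 10 CPM, and above in 0. The 7 were 58.3% of the 12, beside 4.95% over all compared genes. MARCO, a receptor of liver macrophages, had 0 CPM in immortalized 2, against 27.3, 85 and 74.8 CPM in the 3 liver-rich libraries, while CD74, of antigen-presenting cells, had 356 CPM in immortalized 2, against 257, 449 and 616 CPM in the 3 liver-rich libraries.

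Markers of further organs were mostly under 10 CPM. No member of the heart, skeletal muscle or pancreas lists reached 10 CPM in any of the 4 libraries. The intestinal factors CDX1 and CDX2 were at 0 counts in all 4, though VIL1, villin of brush borders in gut and kidney alike, had 294 CPM in immortalized 2, against 2.79, 1.58 and 2.94 CPM in the 3 liver-rich libraries. 3 of 10 intestine genes reached 10 CPM, of which VIL1 lay at least 4-fold above and 2 at least 4-fold below, among them CDH17, the liver-intestine cadherin, at 4.28 CPM in immortalized 2, against 75.4, 50.4 and 34.2 CPM in the 3 liver-rich libraries. 1 of 9 lung genes did, SFTPA1, a surfactant protein, at 0.273 CPM in immortalized 2, against 187, 299.6 and 338 CPM in the 3 liver-rich libraries. 1 of 4 spleen genes did, CR2, a complement receptor of B cells, at 2.18 CPM in immortalized 2, against 20.9, 39 and 26.7 CPM in the 3 liver-rich libraries. 1 of 5 adipose genes did, and it lay less than 4-fold above the 3 libraries. 2 of 11 adrenal genes reached 10 CPM. HSD3B1, a steroid dehydrogenase, lay at least 4-fold above, at 24.5 CPM in immortalized 2, against 3.64, 3.3 and 5.62 CPM in the 3 liver-rich libraries, and lost this call with TMM scaling, under which the other lay at least 4-fold below, while MC2R, the adrenal receptor for ACTH, was at 0 counts in all 4. Of 11 injury and immediate early genes 0 lay at least 4-fold above and 1 below, or 2 below with TMM scaling. The 1 by column total was LCN2, a marker of damaged tubule, which had 0 CPM in immortalized 2, against 1.32, 6 and 12.2 CPM in the 3 liver-rich libraries, and KRT20 was at 0 counts in all 4. CLU, clusterin, had 3288 CPM in immortalized 2, against 1838, 2418 and 2735 CPM in the 3 liver-rich libraries, and its place above the 3 libraries flips with TMM scaling, under which no member lay above all 3.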

How the data were processed

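RNA was extracted with RNeasy mini kits, and single-read NextSeq libraries were prepared with an NEB Next Ultra II RNA kit, per the labels' protocols. The authors deposited expected counts per Ensembl gene, merged from salmon as the file's name says, on the build UMD3.1 per the submitters' processing notes; which salmon version, annotation and strand handling were used is not given in the sources used here. The table held 24596 genes in 18 libraries. Gene names come from the file, 17 list symbols were matched by another name, and the row with the most counts was used for 8 repeated names. RefSeq (ARS-UCD2.0) was used for names and gene order only.

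CPM were counts divided by the column total. A gene at 10 CPM or more in 1 of the 4 libraries counted as higher or lower when at least 4-fold above the highest, or below the lowest, of the 3 libraries. Log2 ratios used 0.5 CPM and the median of the 3. A fold against 0 counts is a bound against 3 counts in a library, and 1 to 3 counts have an exact 95% interval. No test was made, since 1 library was set against 3 chosen from these data. The rule was run on simulated counts with counting error only and with changes set beyond the 4-fold margin. These lacked variation between libraries, so they check the calculation and not the calls made here.

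The libraries, the members, 662 list symbols (628 found) and the rule for named genes were chosen with earlier results of these data known, and 10 lists were added after their values were seen. Those were glomerular basement membrane, organic ion carriers, claudins, aquaporins, proton pump subunits and TERT with its neighbours. The rest were urate, ascorbate and peroxidase genes, further tubule genes, HOX genes and SLC genes. The rule names the 20 genes farthest above, the 12 farthest below, the 10 with the most counts, up to 6 per list, every member of the pathways shared by both organs and segment markers at 0 counts; the text names only part of these. Alternatives were TMM (edgeR 4.0.16) and DESeq2 1.42.0 size factors in R 4.3.3, totals without mitochondrial genes, other minimums, folds and pseudocounts, rounding, leaving out each library, and all 17 other libraries, which was added after seeing the data. Some genes are not reported here.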

Additional observations from a re-analysis of the deposited data

How the results depend on the processing

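Under every alternative run, the proximal tubule transport list kept a positive median log2 ratio and the plasma protein list a negative one. Genes at least 4-fold above numbered 544 with TMM, 563 with DESeq2 size factors, 526 at a 50 CPM minimum, 2334 with no minimum, 2798 at 2-fold, 578 at 8-fold and 357 against all 17 other libraries, beside 1070. Genes at least 4-fold below numbered 791 with no minimum and 759 at 2-fold, beside 497. The proximal tubule median of 6.71 became 6.02 with TMM, 6.03 with DESeq2 size factors, 6.97 without mitochondrial genes, 6.38 at 5 CPM, 7.15 at 50 CPM, 5.36 with no minimum, 7.16 with a pseudocount of 0.1 CPM and 4.45 with 5 CPM. The plasma protein median of -8.60 became -9.49 with TMM, -9.45 with DESeq2 size factors, -9.48 with a pseudocount of 0.1 CPM and -7.41 with 5 CPM. The mitochondrial share became 18.6% over genes with a given symbol only. Of these shifts the cause was not tested. Leaving out 1 of the 3 libraries gave 1152 to 1288 genes above, 507 to 565 below, medians of 6.63 to 6.81 and -8.70 to -8.53. No paired analysis was possible because the results come from no test and 1 library stands on 1 side. With 1 library the comparison has no replicate check, and genes below 3 counts are not resolved at this depth.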

Other observations

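A set of further tubule genes was written down after their values were seen, so their direction is given by the choice and only the levels are of interest. KCNJ15, a potassium channel, had 632 CPM in immortalized 2, against 0.93, 0.375 and 0.587 CPM in the 3 liver-rich libraries. TINAG, a basement membrane protein of tubules, had 514 CPM in immortalized 2, against 0, 0 and 0 CPM in the 3 liver-rich libraries. WFDC2, a secreted protease inhibitor of distal epithelia, had 238 CPM in immortalized 2, against 5.27, 0.075 and 0.252 CPM in the 3 liver-rich libraries. SLC16A4, a monocarboxylate carrier, had 312 CPM in immortalized 2, against 0, 0 and 0 CPM in the 3 liver-rich libraries. CA12, a carbonic anhydrase of tubule cells, had 100.2 CPM in immortalized 2, against 0, 0 and 0 CPM in the 3 liver-rich libraries. PKHD1, fibrocystin of the tubule cilium, was present in all 4 libraries, at 416 CPM in immortalized 2, against 11.5, 87.7 and 47 CPM in the 3 liver-rich libraries. Its 4-fold call was lost with TMM scaling.

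By rank correlation across the 24596 genes of the table, immortalized 2 lay nearest to the liver-rich libraries, with Spearman's rho of 0.900, 0.908 and 0.905 for senescent 2, senescent 3 and immortalized 1, followed by 0.894 for Holstein-Like senescent 1 and 0.887 for Holstein-Like immortalized 3. With the other 12 libraries it was 0.804 to 0.842. The lowest of these, 0.804 to 0.807, were the Holstein-Like primary libraries, which held only 1424479 to 1466911 counts each and are also named as reruns. Genes are not independent replicates, and the Holstein-Like columns share a naming as reruns that the Simmental-Like columns lack.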
